A study of Homo sapiens with 6 samples.

Results

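The MYC, MAX and MXD network was followed in MM.1S, an established line grown from human multiple myeloma, a cancer of plasma cells. The members were 10 genes chosen by symbol: MYC, MAX, MLX and MLXIP, called here the activator side, and MXD1, MXD3, MXD4, MXI1, MNT and MGA, the antagonist side. All 10 had a row in every count table of 56637 genes, and all 10 had enough counts to be tested, among 13839 genes tested in all. The cells carried a lentiviral short hairpin RNA (shRNA) against luciferase, the control shLuc, or against KDM6B, which encodes an eraser of the repressive H3K27 methyl mark. Both groups were infected and kept under puromycin, and each gave 3 libraries from total RNA. The labels name 1 target per group and no other hairpin to KDM6B, so effects of lowering KDM6B and other effects of the hairpin cannot be told apart. Whether the replicates were separate cultures is not stated, so the tests weigh differences against a spread that may be technical. In bulk RNA, more transcript per cell and more cells with the transcript cannot be told apart either.

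MYC is a transcription factor that binds DNA as a pair with MAX, at a short sequence called the E-box, and raises genes of growth, ribosome assembly and metabolism. MXD1, MXI1 (also called MXD2), MXD3, MXD4 and MNT compete for MAX and bring SIN3 and histone deacetylases to E-boxes, where they repress. MGA is a larger MAX partner found in a Polycomb complex, PRC1.6. MAX therefore serves both sides. MLX is the matching partner in a parallel arm: with MLXIP, also called MondoA, it activates genes in response to glucose metabolites, and it can also pair with MXD1, MXD4 and MNT. In myeloma MYC is often rearranged and highly expressed.

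The E-box was looked for as CACGTG, which reads the same on both strands, in the RefSeq promoter table of build GRCh38.p14, whose windows run from 250 bases before to 50 bases after a gene's start. The table held 9 of the 10 members, without MYC. In 3 of these 9, MXD4, MNT and MLX, the window had a CACGTG, compared with 12.9% of 9292 tested genes with a window and 7.26% of all 35116 windows. None of the 3 MXI1 windows, 1 for each listed start, had one, which says only that these letters were not there. The variant E-box CACGCG, searched on both strands, was in 3 of the 9 members, in 22.8% of the tested genes with a window and in 11.4% of all windows. The E-box stretches of the 3 members, and of 4 target genes of MLXIP and MLX described below, are printed 5′ to 3′ on the gene's strand. CACGTG is in capitals, and genes without it in their windows are not shown:
MNT, minus strand, chr17:2401236-2401265: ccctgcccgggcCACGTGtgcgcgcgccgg
MLX, plus strand, chr17:42567038-42567067: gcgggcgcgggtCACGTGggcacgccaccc
MXD4, minus strand, chr4:2262330-2262359: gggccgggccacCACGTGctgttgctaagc
ARRDC4, plus strand, chr15:97960481-97960510: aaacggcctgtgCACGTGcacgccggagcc
KLF11, plus strand, chr2:10043635-10043664: ccgcccgcagccCACGTGcggccgctgctg
PFKFB3, plus strand, chr10:6202812-6202841: caccctcctcccCACGTGgaagggggctgg
HK2, plus strand, chr2:74834964-74834993: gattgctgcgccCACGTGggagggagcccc
The first base of the E-box lay 193 bases before the start in MNT, 50 in MLX and 238 in MXD4. No data on DNA binding belong to this series, so a match is a description of the sequence and not a measured site.

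Library totals ran from 7338393 to 8996159 counts in shLuc and from 7952156 to 9848351 in shKDM6B. KDM6B itself, the targeted gene, had 409, 505 and 437 counts in the control libraries and 239, 270 and 348 in the shKDM6B libraries. After scaling it stood at 61.1% of its shLuc level (95% interval from 0.550-fold to 0.679-fold), so most of the transcript remained. All 10 plasma cell markers looked for were present at enough counts to be tested, with a summed level of 3105 to 3407 counts scaled to a common library size (CPM) in shLuc and 2913 to 3280 in shKDM6B. CPM is the usual count per mega-count of the library total, after scaling by the trimmed mean of M-values (TMM). The 11 epithelial markers summed to 3.20 to 13.6 CPM in shLuc and 2.73 to 46.8 CPM in shKDM6B. The highest values were in shLuc replicate 1 and shKDM6B replicates 1 and 2. These 3 libraries also had the lowest totals, so fits without them change depth as well as keratin counts. The fit without them keeps only replicate 3 of shKDM6B, so it rests on 1 shKDM6B library. Markers of T cells (5.14 to 10.6 CPM summed), monocytes (1.65 to 3.58) and fibroblasts (0.881 to 3.94) stayed low in every library. FCGR3A of monocytes and CD3G of T cells were at 0 in all libraries.

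MYC was the most abundant member by a wide margin. Per length, its level in shLuc was 122 ± 10.7 CPM per kilobase of exon (SD, n = 3), and MXD4, the next, stood at 28.1 ± 1.2. The order then ran MLX (23.2 ± 0.9), MXI1 (18.7 ± 0.3), MXD3 (15.8 ± 0.5), MAX (14.2 ± 0.5), MNT (12.1 ± 0.7), MLXIP (10.3 ± 0.2), MGA (5.72 ± 0.45) and MXD1 (4.73 ± 0.46), all in CPM per kilobase with n = 3. The 3 shLuc values of each gene lay apart from those of its neighbours in this order. In shKDM6B, MXI1 moved from the fourth to the second place, at 30.3 ± 1.5 CPM per kilobase, and MXD4 was at 26.1 ± 1.1. Lengths are the union of all exons in GENCODE 29, so an order between genes with many isoforms is approximate.

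**Figure D1:**
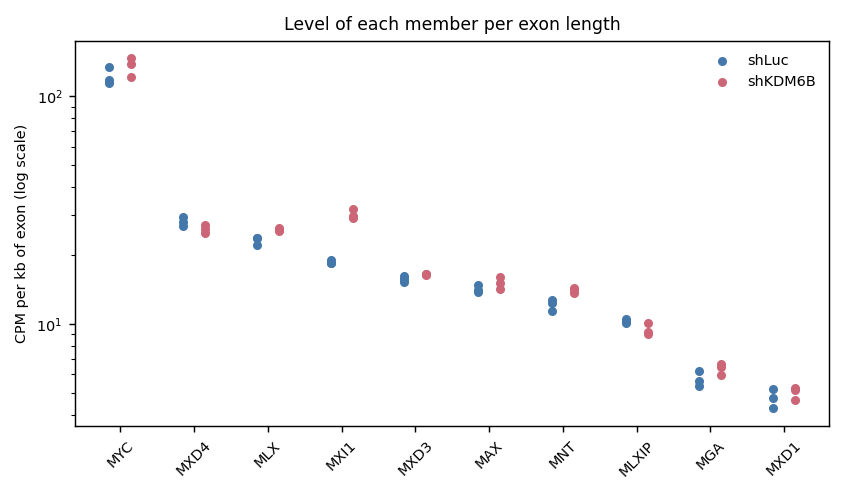
Level of each member in CPM per kilobase of exon, on a log scale, with 1 point per library and genes ordered by their shLuc mean. MYC stands above all others, and MXI1 shows the clearest gap between the 3 shLuc and the 3 shKDM6B points.

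MXI1, an antagonist that pairs with MAX, changed most among the members, and MNT, the broadly expressed antagonist, and MLX rose by a small amount. Of the 10 members 4 were higher in shKDM6B (MXI1, MNT, MLX and MGA), 1 was lower (MLXIP) and 5 did not pass an adjusted p of 0.05 in edgeR's quasi-likelihood test. Among all tested genes 39.1% passed, 20.1% higher and 18.9% lower, so the share of members called was close to that of other genes. The median log2 fold change was 0.12 over the members and -0.0053 over all tested genes. By side, 1 of 4 activator genes was higher and 1 lower, and 3 of 6 antagonists were higher and 0 lower. No member changed direction in any of the 17 other fits. MXI1, MNT and MLX were the 3 members past the threshold without shLuc replicate 2 and without shKDM6B replicate 2. By the DESeq2 Wald test 2 passed, MXI1 and MNT.

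**Figure D2:**
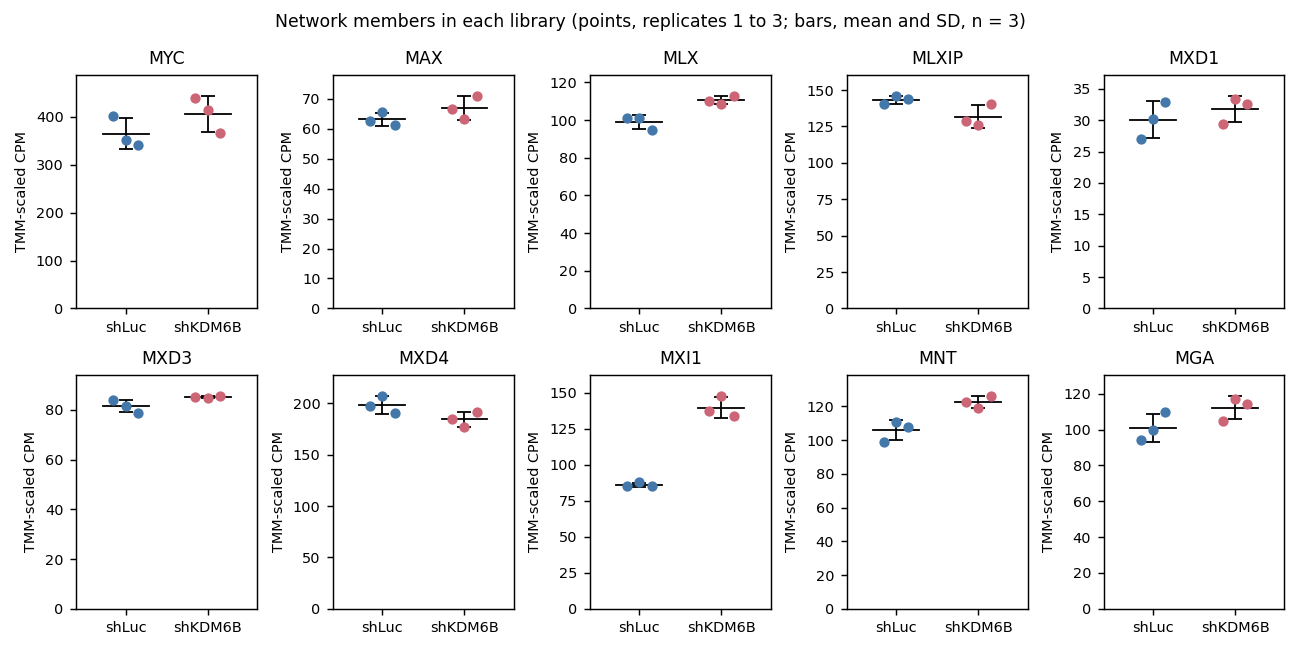
TMM-scaled CPM of the 10 members in each library, with bars for the mean and SD of 3 libraries and an axis from 0 in each panel. The groups lie apart for MLX, MXD3, MXI1 and MNT and overlap for the other 6.

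MXI1 stood at 85.0, 87.8 and 85.1 CPM in shLuc replicates 1 to 3 and at 137, 148 and 134 CPM in shKDM6B replicates 1 to 3. Every shKDM6B library was above every shLuc library by more than the spread within either group. The rise was 1.62-fold (log2 fold change 0.70, SE 0.047, adjusted p = 1.2e-10), and its 95% interval ran from 1.52-fold to 1.74-fold. Of the tested genes, 425 had a larger log2 fold change. Across the other fits the log2 fold change stayed between 0.64 and 0.74, and it was 0.64 without the 3 keratin-bearing libraries. MXI1 has 3 listed starts, and counts per gene do not say which of them rose.

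MNT had 99.1, 111 and 108 CPM in shLuc and 123, 119 and 126 CPM in shKDM6B. The groups lay apart, as they did for 4 of the 10 members, all 4 of them higher in shKDM6B; among all tested genes this held for 48.4%, with 24.5% higher and 23.9% lower. The rise was 1.16-fold (log2 fold change 0.21, SE 0.047, adjusted p = 0.00109), and it passed in every other fit, with adjusted p up to 0.0101. MNT shares 12.2% of its exon bases with an antisense gene on the other strand, which had a mean count of 0, so part of the MNT reads may have been left out. MGA had 93.9, 99.6 and 110 CPM in shLuc and 105, 117 and 115 CPM in shKDM6B, and its groups overlapped. The estimate was 0.15 on the log2 scale (SE 0.054), at an adjusted p of 0.0340. The MGA call was lost when replicate 1 or 2 of shLuc was left out (adjusted p = 0.172 and 0.125) and when replicate 2 or 3 of shKDM6B was (0.171 and 0.0859).

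The other MXD genes, all repressors that pair with MAX, did not pass. MXD4, the most abundant antagonist per length, had 198, 207 and 190 CPM in shLuc and 185, 177 and 192 CPM in shKDM6B. Its log2 fold change was -0.10 (SE 0.046) at an adjusted p of 0.0773, and it passed as lower when either replicate 3 was left out (adjusted p = 0.0381 for shLuc, 0.0410 for shKDM6B). MXD3 had 84.0, 81.5 and 78.9 CPM in shLuc and 85.0, 84.7 and 85.5 CPM in shKDM6B. Its 3 shKDM6B values were all above the shLuc values, yet the difference (log2 fold change 0.065, SE 0.046) had an adjusted p of 0.287 and a 95% interval from 0.979-fold to 1.12-fold. MXD3 shares 18.0% of its exon bases with RAB24 and 22.5% with PRELID1, so part of its reads may have been left out or misassigned. MXD1 was the lowest member, at 27.1, 30.2 and 32.9 CPM in shLuc and 29.4, 33.3 and 32.6 CPM in shKDM6B. Its groups overlapped, and the 95% interval of its change ran from 0.939-fold to 1.18-fold (adjusted p = 0.491).

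**Figure D3:**
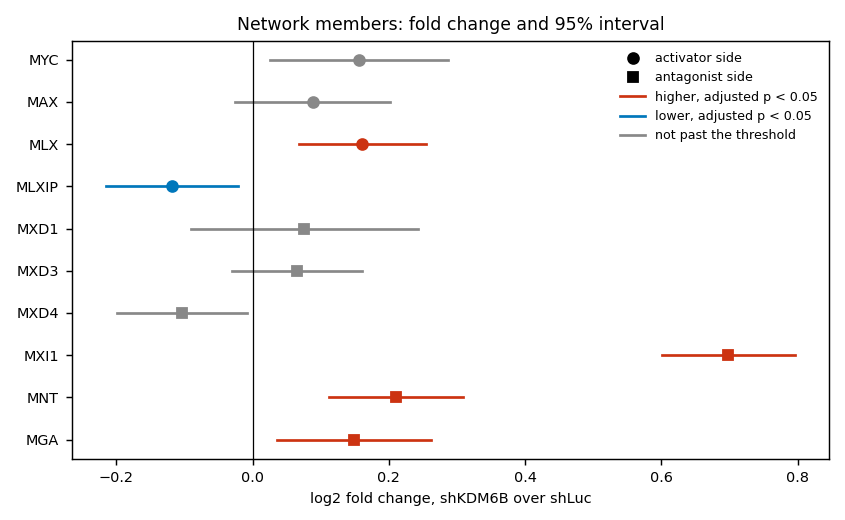
Log2 fold change of each member (shKDM6B over shLuc) with its 95% interval from the edgeR fit; circles are the activator side, squares the antagonist side, and colour gives the call. MXI1, at 0.70, lies apart from the other 9, which run from -0.12 to 0.21.

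MYC gave 402, 352 and 341 CPM in shLuc and 440, 414 and 366 CPM in shKDM6B. The groups overlapped, because shLuc replicate 1 exceeded shKDM6B replicate 3. The log2 fold change of 0.16 (SE 0.063) missed the threshold with an adjusted p of 0.0551. Raw counts were 2925, 3118 and 3097 in shLuc and 3459, 3462 and 3626 in shKDM6B, so in counts all shKDM6B libraries were above all shLuc libraries. MYC counts grew little with depth: the deepest shLuc library had 1.23 times the total of the shallowest and 1.06 times its MYC count, and in shKDM6B these ratios were 1.24 and 1.05. For the other 9 members the count ratio was 1.16 to 1.52 in shLuc and 1.23 to 1.40 in shKDM6B. MYC also had 1.09 counts per exon base, at percentile 99.7 of 12564 tested genes with a known length, whose median was 0.0852.

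With the library total as a covariate the MYC log2 fold change was 0.21 and the adjusted p 3.16e-06. Without shLuc replicate 1, the shallowest shLuc library, it was 0.23 (adjusted p = 0.00278), and without shKDM6B replicate 3, the deepest library, also 0.23 (adjusted p = 0.00303). Without the 3 keratin-bearing libraries, which also had the lowest totals, it was 0.080, and depth and keratin cannot be told apart there. By the DESeq2 Wald test the adjusted p was 0.335. The sign was the same in all of these fits, and the call was not. MAX, the partner shared by both sides, had 62.6, 65.5 and 61.2 CPM in shLuc and 66.7, 63.1 and 71.0 CPM in shKDM6B. Its groups overlapped, and its change had a 95% interval from 0.983-fold to 1.15-fold (adjusted p = 0.216).

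**Figure D4:**
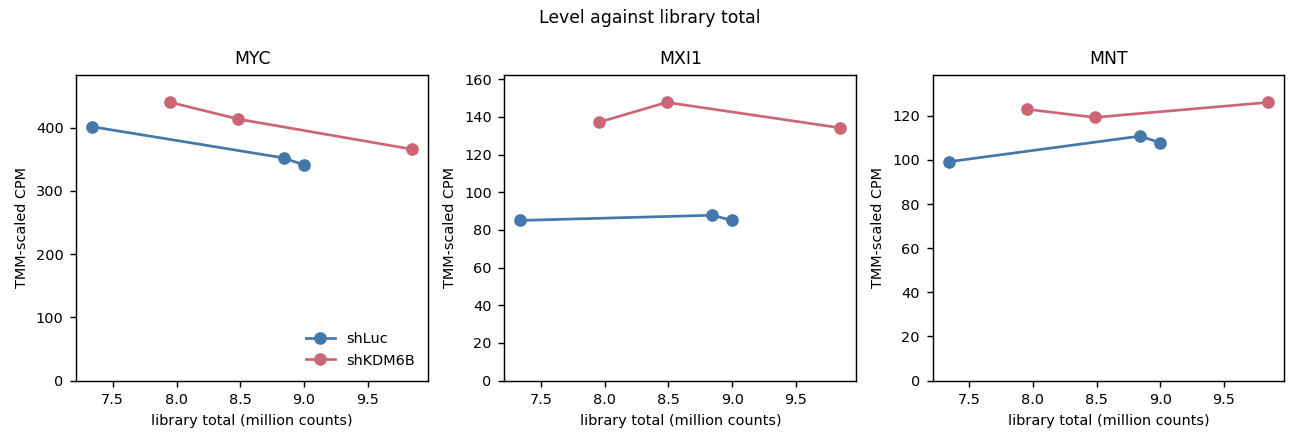
TMM-scaled CPM of MYC, MXI1 and MNT against the library total, with 1 line per group joining its 3 libraries. MYC falls along each line, from 402 to 341 CPM in shLuc and from 440 to 366 in shKDM6B, while the MXI1 and MNT lines do not fall steadily and stay apart.

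MLX had 101, 101 and 94.5 CPM in shLuc and 110, 109 and 113 CPM in shKDM6B, with no overlap. The rise was 1.12-fold (log2 fold change 0.16, SE 0.045, adjusted p = 0.00672), and it missed the threshold without shLuc replicate 3 (adjusted p = 0.0574) and by the DESeq2 Wald test (adjusted p = 0.0722). MLX shares 18.1% of its exon bases with PSMC3IP on the other strand, and the library kit, as far as its name tells, keeps no strand. MLXIP, its glucose-sensing partner, had 140, 146 and 144 CPM in shLuc and 129, 126 and 141 CPM in shKDM6B. The shKDM6B replicate 3 value fell inside the shLuc range. With an adjusted p of 0.0493, the log2 difference of -0.12 (SE 0.047) lay just inside the threshold. The MLXIP call was lost without shLuc replicate 2 or 3 (adjusted p = 0.143 and 0.0775) and without shKDM6B replicate 1 or 2 (0.153 and 0.220). Without the keratin-bearing libraries, which leaves 1 shKDM6B library, its log2 fold change was -0.039.

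Ratios between members were computed per library in CPM per kilobase and are given without a test. The log2 ratio of summed activators to summed antagonists was 1.12, 0.93 and 0.92 in shLuc and 1.02, 0.91 and 0.82 in shKDM6B. The groups overlapped, with means of 0.99 ± 0.11 and 0.92 ± 0.10 (SD, n = 3 each). MYC alone over the 6 antagonists also overlapped (0.51 ± 0.14 and 0.46 ± 0.15). MYC over MAX overlapped as well (3.09 ± 0.13 and 3.16 ± 0.20). The log2 ratio of MYC to MXI1 went from 2.70 ± 0.14 to 2.16 ± 0.13, with no overlap. This ratio and the MXI1 share given next use the member that changed most, so they restate its rise. MXI1 made up 27.7% ± 0.3 of the summed MXD1, MXD3, MXD4 and MXI1 level in shLuc and 38.9% ± 1.7 in shKDM6B. The MLXIP to MLX log2 ratio was -1.17 ± 0.07 in shLuc and -1.45 ± 0.06 in shKDM6B, again with no overlap.

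MYCN, a relative of MYC better known from neural tumours, fell in these cells. It had 184, 199 and 209 counts in shLuc and 79, 77 and 101 in shKDM6B, or 23.6 ± 1.5 and 9.82 ± 0.54 CPM (mean ± SD of 3 libraries; log2 change -1.26, SE 0.10, adjusted p = 2.2e-09). MYCL, the remaining relative, had a log2 fold change of -0.17 (adjusted p = 0.158), and MLXIPL, also called ChREBP, was at 0 in all libraries. In this list of 6, which also holds TCFL5, USF1 and USF2 as further E-box binding factors, MYCN was the only one of 5 tested genes past the threshold. Of all tested genes 39.1% passed. Within shLuc, MYC was at 365 ± 32 CPM (SD, n = 3) on the same scale, not corrected for length.

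Of 10 listed targets of MLXIP and MLX, 9 were tested and all 9 passed, 7 higher and 2 lower, with a median log2 fold change of 0.39. The share over all tested genes was 39.1%. By the DESeq2 Wald test 5 were higher and 2 lower, and 6 were higher without shLuc replicate 2 or 3 or without shKDM6B replicate 1 or 2. Without the keratin-bearing libraries, which leaves 1 shKDM6B library, the list median was 0.32. RGS16, a brake on G protein signalling, rose from 51.6 ± 0.8 to 82.2 ± 6.4 CPM (mean ± SD of 3 libraries; log2 change 0.67). PFKFB3, which makes an activator of glycolysis, rose by 0.60 on the log2 scale, and the repressor KLF11 by 0.52. HK2, a hexokinase of the first step of glycolysis, fell from 167 ± 3 to 120 ± 2 CPM (mean ± SD of 3 libraries; log2 change -0.48). TXNIP and ARRDC4, the arrestin-like genes best known as MondoA targets, moved in opposite directions. TXNIP had 232, 208 and 203 CPM in shLuc and 198, 181 and 178 in shKDM6B (log2 fold change -0.21, adjusted p = 0.00299), with no overlap. ARRDC4, at low counts of 46, 49 and 46 against 59, 82 and 90, differed by 0.66 on the log2 scale, with an SE of 0.16 and an adjusted p of 0.00198. The TXNIP call was lost when the scaling used sparsely covered genes alone (adjusted p = 0.0997). FASN (0.39), KLF10 (0.17) and ARRDC3 (0.15), named after their values were seen, were the other 3 higher genes. CACGTG was in the promoter windows of 5 of the 8 listed targets that the RefSeq table holds, compared with 12.9% of tested genes with a window.

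Of 32 targets that MYC is known to induce, 9 were higher and 0 lower, and 23 stayed short of the threshold, with a median log2 fold change of 0.041. The matching shares of all tested genes were 20.1% higher and 18.9% lower. Summed, the 32 stood at 6977, 6517 and 6477 CPM in shLuc and 7242, 7122 and 6623 CPM in shKDM6B. The sum thus fell as library totals rose, as MYC did. RRP9, a factor for processing ribosomal RNA, rose from 90.0 ± 1.0 to 121 ± 7 CPM (mean ± SD of 3 libraries; log2 change 0.42, SE 0.048, adjusted p = 3e-07). RRP12 (0.28), the RNA polymerase I subunit POLR1B (0.21) and the pyrimidine synthesis enzyme CAD (0.20) were also higher. With the library total as a covariate 15 were higher, where 43.1% of all tested genes passed. Without shLuc replicate 2, 6 were higher and 1 lower, and without shKDM6B replicate 2, 6 were higher and 0 lower. Without shLuc replicate 3 or shKDM6B replicate 1, and with scaling from sparsely covered genes, 7 were higher and 0 lower. The other fits with 1 library left out gave 9 and 11 higher. In these leave-out fits 32.0% to 35.9% of all tested genes passed. Without the keratin-bearing libraries the median log2 fold change of the list was 0.015. The promoter table held 26 of them, and 14 of these had a CACGTG, compared with 12.9% of tested genes with a window. A stretch that neighbouring genes of the list share was counted for each of them. Among 10 listed genes that MYC is known to repress or to act on through ZBTB17, 9 were tested, 2 were higher and 3 lower, with a median of -0.055. The metastasis suppressor NDRG1 (0.48) and the growth arrest gene GAS1 (0.64) rose, and the CDK inhibitor CDKN2B (-1.16) and the atypical cyclin CCNG2 (-0.59) fell. CDKN2B went from 118, 131 and 147 counts in shLuc to 48, 70 and 65 in shKDM6B. CDKN2C, also a CDK inhibitor, was at 0 in all libraries.

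Among the SIN3 and deacetylase partners of the MXD repressors, 4 of 18 rose, 3 fell and 11 missed the threshold (median 0.023). That share called was close to the one over all tested genes, of which 20.1% were higher and 18.9% lower. Without shLuc replicate 3, 2 were higher and 4 lower. SMARCA2, a chromatin remodelling ATPase, rose from 155 ± 3 to 273 ± 6 CPM (mean ± SD of 3 libraries; log2 change 0.82, SE 0.043, adjusted p = 2.97e-12). ARID4A (-0.64), SUDS3 (-0.54) and ARID4B (-0.20), which belong to SIN3 complexes, fell. The scaffolds SIN3A (0.043, adjusted p = 0.478) and SIN3B (0.0031, adjusted p = 0.971) did not pass. The 13 partners of MGA in PRC1.6 had 5 higher, 1 lower and 7 not past the threshold (median 0.14). YAF2 (0.40), the methyltransferase EHMT1 (0.18) and L3MBTL2 (0.15) were higher and RING1 was lower (-0.21). By the DESeq2 Wald test 2 of the 13 were higher and 1 lower, where 11.8% of 29100 genes passed. These 29100 are all genes with any count, low ones included, so this share cannot be set beside the shares above. Without the keratin-bearing libraries, which leaves 3 of the 6 libraries and 1 of shKDM6B, ARID4B, L3MBTL2 and RING1 had log2 fold changes of -0.17, 0.14 and -0.19.

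Of 16 coactivators of MYC 4 were higher, 2 were lower and 10 missed the threshold (median 0.099). For this list and the next, the shares over all tested genes were 20.1% higher and 18.9% lower. The share of coactivators called was close to that of other genes. MYCBP (0.23) and the acetyltransferase scaffold TRRAP (0.18) were higher, and the acetyltransferase KAT5 (-0.20) and the elongation cyclin CCNT1 (-0.26) were lower. Without shKDM6B replicate 2 the counts were 1 higher and 2 lower, and TRRAP was among the lost calls (adjusted p = 0.120). Without the keratin-bearing libraries, which leaves 1 shKDM6B library, MYCBP and KAT5 had log2 fold changes of 0.17 and -0.12. With the library total as a covariate 9 were higher and 2 lower, where 43.1% of all tested genes passed. Of 19 genes that set the stability of the MYC protein 4 were higher, 2 were lower and 13 missed the threshold (median -0.0013). The ubiquitin ligase STUB1 rose from 46.2 ± 2.6 to 70.2 ± 2.5 CPM (mean ± SD of 3 libraries; log2 change 0.61), and the deubiquitinase USP36 rose as well (0.21). The ubiquitin ligase subunit SKP2 (-0.29) and the kinase PIM1 (-0.33) fell. FBXW7, the best-known ligase subunit for MYC, had a log2 fold change of -0.064 (adjusted p = 0.384).

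Of 11 regulators upstream of MYC in plasma cells 10 were tested: 4 rose, 2 fell and 4 missed the threshold (median 0.062). Genes tested in all were 20.1% higher and 18.9% lower. MYB, a transcription factor of blood progenitors, rose from 49.8 ± 2.2 to 92.4 ± 2.5 CPM (mean ± SD of 3 libraries; log2 change 0.89, SE 0.051, adjusted p = 1.14e-11). The lymphoid factor IKZF1 (0.18) was higher. PRDM1 (0.15, adjusted p = 0.0173) and IKZF3 (-0.15, adjusted p = 0.0327) were less firm. PRDM1 was lost without shLuc replicate 2 or 3 or shKDM6B replicate 1 or 2 (adjusted p from 0.0727 to 0.126), and IKZF3 without shLuc replicate 1 or 2 or shKDM6B replicate 1 or 3 (0.107 to 0.134). In this list 2 genes were higher and 0 lower without shLuc replicate 2 and also without shKDM6B replicate 1, and 2 higher and 1 lower without shKDM6B replicate 2. With scaling from sparsely covered genes 2 were higher and 0 lower. Without the keratin-bearing libraries, which leaves 1 shKDM6B library, the list median was 0.020 over 11 tested genes. PVT1, a noncoding neighbour of MYC, had a log2 fold change of -0.13 (adjusted p = 0.168).

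**Figure D5:**
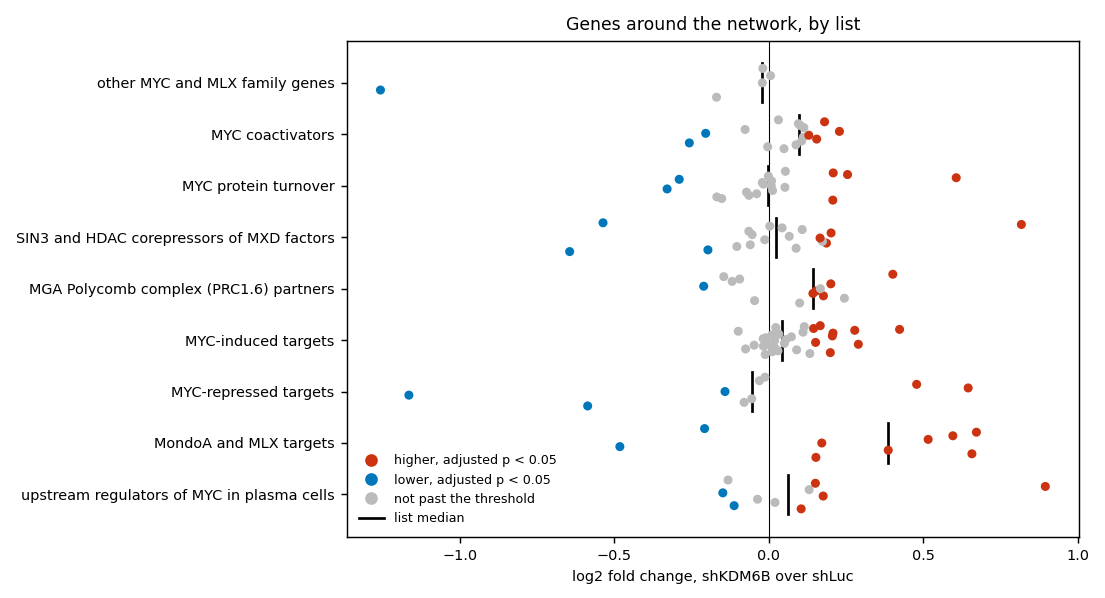
Log2 fold change (shKDM6B over shLuc) of each tested gene in the 9 lists around the network, with the list median as a black bar and colour for the call. The MondoA and MLX targets have the highest median, at 0.39, and include 2 lower genes, and the MYC-induced targets crowd near 0 with 9 higher genes.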

How the data were processed

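From the authors there was a file of raw counts for each library and a single deposited file of normalized values (a linear signal). The submitters' processing notes name STAR, featureCounts, DESeq and the build GRCh37 (hg19). Their versions, the annotation, the strand setting and the handling of duplicate reads were not given in the sources used here. Deposited normalized values equalled the counts divided by 1 factor per library. In each library's count file 1 line that did not hold a name and a count was left out. From the normalized values 28 rows with a date for a name were left out, and 56609 genes were matched to the counts. The main test used edgeR 4.0.16 (R 4.3.3) with filterByExpr, TMM, the quasi-likelihood test with the group as the single term, and Benjamini-Hochberg adjustment over 13839 genes. The SE and the 95% interval follow from the quasi-likelihood statistic. The fit was tested on simulated data with known changes. No set test was run: lists are given by counts and medians.

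The members and lists were chosen with earlier results of these data known. Named genes were all members, KDM6B, TXNIP and ARRDC4, and from each of 9 lists up to 4 genes past the threshold with the smallest p and a mean of at least 5 CPM, besides the 3 genes most like MYC and most like MXI1. Outside this rule MYCL, MLXIPL, CDKN2C, SIN3A, SIN3B, FBXW7, PVT1, FASN, KLF10, ARRDC3 and the markers FCGR3A and CD3G were named after their values were seen. Alternatives were other scalings (DESeq2 size factors, upper quartile, TMM from 3354 genes under 0.03 counts per exon base), other filters (none, or at least 1 CPM in at least 3 libraries), DESeq2 1.42.0, limma 3.58.1 (voom, and trend on log2 of normalized values plus 1), a replicate block, the library total as a covariate, a threshold of 0.01, leaving out each library, and leaving out shLuc replicate 1 with shKDM6B replicates 1 and 2, which hold most keratin counts. Where a group was left with 1 library, it was assumed to vary like the others. The libraries left out for their keratin counts also had the lowest totals. Exon lengths come from GENCODE 29 (GRCh38), for 12564 tested genes, and promoter windows from RefSeq GRCh38.p14; no coordinates of the authors' build were used.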

Additional observations from a re-analysis of the deposited data

How the results depend on the processing

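All 10 members kept their direction in the 17 other fits, and MXI1 and MNT passed in each of them. By the DESeq2 Wald test 3421 genes (11.8% of 29100) and 2 members passed, against 5405 genes (39.1% of 13839) and 5 members in the reported fit. The 29100 are all genes with any count, low ones included, so these shares have unlike bases. Leaving out 1 library gave 4533 to 5030 genes (32.0% to 35.9% of those tested) and 3 to 6 members. At an adjusted p under 0.01, 3 members passed. MYC passed with a log2 fold change of 0.16 with no filter on low counts (adjusted p = 0.00214) and of 0.21 with the library total as a covariate; leaving out 1 library gave 0.098 to 0.23. MLX missed the threshold by DESeq2 at 0.16, and ranged from 0.12 to 0.18 with 1 library left out. MLXIP missed it with scaling from genes covered by few counts (-0.077), no filter (-0.12) and DESeq2 (-0.12), and ranged from -0.17 to -0.090 with 1 library left out. Its log2 fold change was -0.039 without the keratin-bearing libraries, which leaves 1 shKDM6B library. MXD4 passed as lower with upper-quartile scaling (-0.12) and the library total (-0.11), and ranged from -0.14 to -0.074 with 1 library left out. MGA missed the threshold with upper-quartile scaling (0.13) and DESeq2 (0.15), and ranged from 0.10 to 0.21 with 1 library left out. Its log2 fold change was 0.13 without the keratin-bearing libraries. The cause of these shifts was not tested.

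Whether replicate numbers pair the libraries cannot be decided with 3 libraries a group. Deviations from group means of same-numbered libraries correlated at 0.12, -0.076 and 0.16 for replicates 1, 2 and 3. Between different numbers the correlations ran from -0.19 to 0.075, and not every library was closest to its own number. In both groups the library totals rose with the replicate number. With the replicate block 6218 genes and 7 members passed, MYC (log2 fold change 0.16, adjusted p = 0.000194) and MXD4 (-0.10, adjusted p = 0.0243) being the 2 added. With 3 libraries a group and totals of 7338393 to 9848351 counts, the 5 members that passed in some fits and not in others (MYC, MLX, MLXIP, MXD4 and MGA) had log2 fold changes between -0.12 and 0.16.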

Other observations

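Across the 6 libraries the genes most like MYC in log2 CPM were HMGA1, DPP7 and TCF3 (Pearson's r = 0.999, 0.998 and 0.997, over 11208 genes compared). Of the genes compared, 109 had an r of at least 0.95 with MYC. HMGA1 stood at 222, 203 and 198 CPM in shLuc and 237, 226 and 207 CPM in shKDM6B, so it also fell as library totals rose. These 3 genes had 0.789, 0.732 and 0.920 counts per exon base, and MYC had 1.09; the libraries and their depths are shared by all of them. The genes most like MXI1 were CD6, C17orf70 and ALCAM (r = 0.999, 0.998 and 0.998), and 1036 genes had an r of at least 0.95 with it. ALCAM, a cell adhesion molecule, stood at 34.7, 34.8 and 35.1 CPM in shLuc and 55.0, 60.5 and 54.7 CPM in shKDM6B.

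The E-box letters CACGTG were in the promoter window of 330 of 2058 genes higher in shKDM6B (16%) and of 214 of 1845 genes lower (11.6%). Of all tested genes with a window 12.9% had them. The variant CACGCG differed in the same direction, at 25.2% of the higher, 18.5% of the lower and 22.8% of the tested genes. These shares are a description without a test.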
